A study of Mus musculus with 4 samples.

Results

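Claudins, cadherins and 7 further genes of epithelial adhesion were followed from the epithelium of the mouse otic vesicle, through the neuroblasts that leave it, to neurons of the cochleovestibular ganglion, and across the other tissues of the same dissection. The members were chosen by symbol alone: every gene named Cldn or Cdh plus a number, with Epcam, Ocln, Tjp1, Esrp1, Esrp2, Krt8 and Krt18. This gave 53 of the 32285 genes in the matrices, of which 23 were claudins and 23 cadherins. At least 1 UMI (1 counted transcript molecule) was found for 51 of them, and Cldn13 and Cldn17 had none.

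The series holds single-cell RNA-seq of 4 libraries from Swiss-Webster embryos of 34 to 36 somites (E10.5). The 2 cKO libraries came from embryos carrying Pax2-Cre, floxed Tbx2 and Tbx3 on both chromosomes and 1 Rosa26-GFP reporter allele (Pax2-Cre with Tbx2f/f and Tbx3f/f, together with Rosa26-GFPf/+). The 2 control libraries came from embryos with the same Cre and reporter and no floxed T-box allele named (Pax2-Cre with Rosa26-GFPf/+). The vesicle, the ganglion and the neighbouring neural tube and pharyngeal tissue were dissected, pooled and sorted for live GFP-positive cells, and reporter activity was not measured in the classes below. The protocols name 3 control and 2 cKO embryos without saying how they were divided among the libraries, so p-values measure the spread between 2 libraries a group, which may be partly technical. The title of the series places its question in how Tbx2 and Tbx3 direct cell fate in the otic vesicle.

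Epithelial cells are held together by several kinds of contact. Claudins and occludin are the membrane proteins that seal tight junctions, with Tjp1 (ZO-1) as their scaffold inside the cell. Classical cadherins bind the same cadherin on the next cell in adherens junctions, and a change from E-cadherin (Cdh1) to N-cadherin (Cdh2) and other cadherins is a known mark of cells that leave an epithelium. Epcam is a surface glycoprotein of epithelia, Krt8 and Krt18 form the keratin filaments of simple epithelia, and Esrp1 and Esrp2 set epithelial splicing. In the inner ear, neuroblasts delaminate from the floor of the otic vesicle and coalesce into the ganglion that later serves hearing and balance.

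The libraries held between 106769747 and 128205192 UMIs, and 14399 cells were kept. Of the UMIs of a kept cell, the mitochondrial share had a median of 1.31% and 1.38% in cKO libraries and 2.41% and 2.96% in control libraries, and its part in the results was not tested. Cells fell into 29 clusters, made without the 53 members, and 11 classes were named from marker genes that are not members. Each class resembles its markers and carries no label from the submitters. Pairs of libraries shared 2 to 8 cell barcodes. Levels are UMIs of a gene per 1000000 UMIs of the same class and library (CPM). Because each transcript is counted once near its 3′ end, levels are compared only within a gene. Log2 fold changes and adjusted p-values come from edgeR's quasi-likelihood test on counts summed per library, adjusted over all genes tested, and an adjusted p below 0.05 is called a rise or a fall. In such sums, fewer cells that express a gene and less RNA per cell cannot be told apart.

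Tbx3, a deleted T-box gene, had 22.7 and 17.7 CPM in cKO otic epithelium and 63.3 and 60.9 CPM in control otic epithelium. Tbx2 had 69.4 and 67.6 CPM in cKO and 92.9 and 102 CPM in control otic epithelium. In otic epithelium and in neuroblasts both were lower in each cKO library than in each control library. In neurons Tbx3 was lower too, but Tbx2 overlapped, at 15.2 and 16.3 CPM in cKO and 13.98 and 15.7 CPM in control. In epibranchial neurons (described below) Tbx2 was lower, but Tbx3 overlapped, at 18.8 and 21.05 CPM in cKO and 26.2 and 12.7 CPM in control. Which exons the Cre removes is not stated, so 3′ counts need not report the deletion in full. The otic class was made of different clusters in the 2 genotypes. Clusters 0, 3, 5 and 19 held 90.7% of its cKO cells and 0.301% of its control cells, clusters 7, 9, 11, 12 and 14 held 1.44% and 71.0%, and clusters 4, 17 and 21 held 7.88% and 28.7%. All 16 otic markers were found in it, at a summed 763 and 763 CPM in cKO libraries against 1533 and 1709 CPM in control libraries.

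From otic epithelium to ganglion neurons the claudins and epithelial genes fell and a small set of cadherins rose. The neuroblasts were 318 cells of 1 cluster (cluster 20, led by Neurod1, Snai2, Insm1 and Neurog1). The neurons were 1720 cells of an early ganglion cluster (cluster 1) and a maturing one (cluster 8, led by Stmn2). Of 32 members tested in neurons over otic epithelium, 23 were lower and 6 higher, where 54.2% of all genes tested passed. By family, 11 of 14 claudins were lower and 1 was higher, all 7 of the other epithelial genes were lower, and 5 of 11 cadherins were lower and 5 higher. The median log2 fold change was -3.22 over the members and -0.01 over all genes. The other 21 members were too low to be tested, and 11 of them had fewer than 20 UMIs in all libraries together.

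Members moved at both steps, from epithelium to neuroblasts and from neuroblasts to neurons. In neuroblasts over otic epithelium 17 of 30 members tested were lower and 4 higher, where 26.9% of all genes passed, and the members' median was -0.47. In neurons over neuroblasts 17 of 24 were lower and 3 higher, where 28.7% of all genes passed, and the median was -2.54. Sizes at the neuroblast step are those of cluster 20 and varied with the processing. Over 14 alternatives, other clusterings among them, the log2 fold change ran from -1.99975 to -0.36 for Epcam and -2.09 to -0.25 for Krt8. It ran from -2.08 to -0.27 for Esrp1, -2.24 to -0.31 for Cldn9 and -2.61 to -0.72 for Cldn6. Tjp1 varied less, from -0.541 to -0.282. With 1 library left out, Epcam ran only from -0.499 to -0.394.

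Promoters of 3 members are shown because their genes lie at the poles of the series: Epcam, which stayed high in neuroblasts, Cldn4, which had the largest fall there among members with a mean above 5 CPM, and Cdh6, which rose most in neurons. The windows are the 250 bases before the annotated start, 5′ to 3′ on the gene's strand, from RefSeq on GRCm38.p6, at chr17:87635729-87635978 (plus strand), chr5:134946935-134947184 (minus) and chr15:13173676-13173925 (minus). Capitals mark the letters CACCTG, or CAGGTG where they lie on the other strand, which is the E-box bound by Snail and Zeb factors.
Epcam: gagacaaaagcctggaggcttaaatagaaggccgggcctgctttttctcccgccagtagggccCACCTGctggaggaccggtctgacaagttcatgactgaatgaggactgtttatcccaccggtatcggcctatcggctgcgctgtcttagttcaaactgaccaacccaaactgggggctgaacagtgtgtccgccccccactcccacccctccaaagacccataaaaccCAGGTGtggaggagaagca
Cldn4: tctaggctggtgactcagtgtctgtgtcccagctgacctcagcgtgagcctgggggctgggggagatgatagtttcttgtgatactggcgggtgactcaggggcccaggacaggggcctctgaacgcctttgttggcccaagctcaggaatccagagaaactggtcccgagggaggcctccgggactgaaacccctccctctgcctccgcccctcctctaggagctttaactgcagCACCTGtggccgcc
Cdh6: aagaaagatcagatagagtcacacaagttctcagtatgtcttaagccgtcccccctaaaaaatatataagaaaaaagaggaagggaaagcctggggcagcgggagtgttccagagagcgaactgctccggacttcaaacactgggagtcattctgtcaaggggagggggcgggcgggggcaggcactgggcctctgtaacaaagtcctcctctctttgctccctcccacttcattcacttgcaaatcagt
The Epcam window holds the letters at 2 places, the Cldn4 window at 1 and the Cdh6 window at none. Over all 32851 windows of this length in the table, 17.2% held them on either strand, and no other motif was searched. A window was given for 37 of the 53 members, and 9 of these (24.3%) held the letters in at least 1 window, where 19.4% of all 27025 genes in the table did: Cdh7, Cldn4, Cldn6, Cldn7, Cldn14, Epcam, Krt8, Krt18 and Ocln. Of members with a window, the letters stood in 7 of 15 that were lower in neurons than in otic epithelium, in none of 5 that were higher, in 1 of 2 that were tested and not called and in 1 of 15 that were not tested. These groups are small and were not tested. A match describes the letters in these windows and shows no binding.

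**Figure D1:**
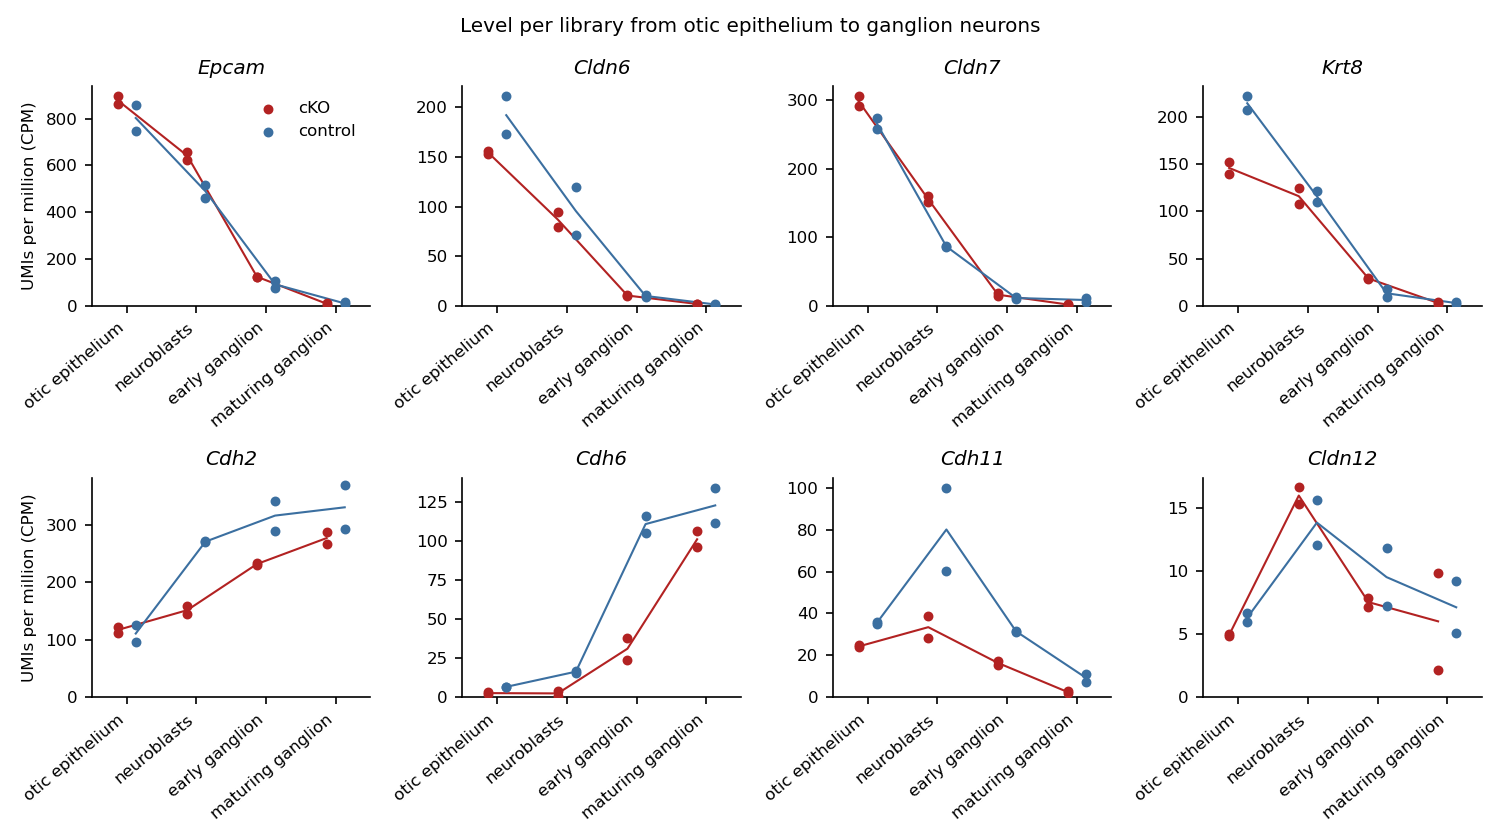
Level of 8 members in each library (points; CPM on a linear axis starting at 0) in otic epithelium, neuroblasts, early ganglion and maturing ganglion cells, with lines through the mean of cKO (red) and control (blue), n = 2 libraries each. Epcam, Cldn6, Cldn7 and Krt8 end near 0, Cdh2 and Cdh6 end above their otic level, and Cdh11 and Cldn12 peak in neuroblasts.

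Epcam fell gradually. It had 862 and 894 CPM in cKO and 860 and 745 CPM in control otic epithelium, then 624 and 658 CPM in cKO and 462 and 517 CPM in control neuroblasts. Early ganglion cells had 125 and 123 CPM in cKO and 108 and 75.2 CPM in control, and maturing ganglion cells 12.7 and 4.33 CPM in cKO and 14.4 and 5.39 CPM in control. Each step lay outside the spread of the 4 libraries. The log2 fold change was -0.46 (SE 0.06, adjusted p = 1.41e-05) in neuroblasts over otic epithelium and -2.83 (SE 0.18, adjusted p = 1e-05) in neurons over neuroblasts.

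The level of Epcam in early ganglion cells was shared by a part of the cells. After each cell was thinned to 10000 UMIs, an Epcam UMI was found in 99.3% to 99.8% of otic cells per library and in 91.7% to 98.8% of neuroblasts. It was found in 42.6% and 41.8% of cKO and 34.0% and 31.3% of control early ganglion cells, and in 13% and 11.1% of cKO and 6.16% and 3.64% of control maturing ganglion cells. Leukocytes, which should lack it, gave 1.89% and 2.00% in cKO and 6.25% and 2.50% in control libraries after the same thinning. The control shares in maturing ganglion cells lay within the range of this background, the cKO shares, from 23 and 18 thinned cells, lay above it, and those of the other 3 stages lay above it in every library. Without thinning, early ganglion cells gave 66.2% and 64.6% in cKO and 47.7% and 50.0% in control, and leukocytes gave 7.41% to 8.16%, at median depths of 27829 to 37523 UMIs and 37492 to 51386.5 UMIs a cell.

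The claudins of the otic epithelium left in a graded order. In neuroblasts over otic epithelium 10 of 13 claudins tested were lower and only Cldn12 was higher. Cldn4, a barrier claudin and receptor for a clostridial toxin, had 6.79 and 6.36 CPM in cKO neuroblasts and 1.25 and 6.02 CPM in control neuroblasts, against 30.9 and 31.6 CPM in cKO and 25.4 and 32.6 CPM in control otic epithelium. Its log2 fold change was -2.36 (SE 0.18, adjusted p = 3.13e-08). Cldn3, also a barrier claudin, had 37.7 and 42.1 CPM in cKO and 28.2 and 58.6 CPM in control neuroblasts, against 97.9 and 118 CPM in cKO and 109 and 134 CPM in control otic epithelium (log2 -1.36, SE 0.09, adjusted p = 8.43e-09). In both genes every neuroblast library lay below every otic library. Cldn10, which forms paracellular ion channels, fell by 1.55 on the log2 scale (SE 0.32, adjusted p = 0.00167).
Cldn7 and Cldn6 had fallen less at this step. Cldn7 had 150 and 160 CPM in cKO and 87.7 and 85.0 CPM in control neuroblasts, against 305 and 291 CPM in cKO and 273 and 258 CPM in control otic epithelium (log2 -1.10, SE 0.09, adjusted p = 1.34e-07). Cldn6, a claudin of embryonic epithelia, had 79.8 and 94.1 CPM in cKO and 71.4 and 120 CPM in control neuroblasts, against 156 and 153 CPM in cKO and 173 and 211 CPM in control otic epithelium (log2 -0.81, SE 0.07, adjusted p = 3.69e-07). In both genes no neuroblast library reached the level of any otic library. Cldn9, whose loss in mice leads to hearing loss, had 36.3 and 35.5 CPM in cKO and 40.1 and 57.1 CPM in control neuroblasts, against 61.8 and 59.7 CPM in cKO and 60.2 and 69.2 CPM in control otic epithelium (log2 -0.51, SE 0.10, adjusted p = 0.000706).
In neurons over neuroblasts these genes fell to a similar degree, with log2 fold changes between -3.56 (Cldn6) and -3.29 (Cldn7) for Cldn3, Cldn4, Cldn6, Cldn7 and Cldn9. Early ganglion cells held Cldn6 at 11 and 9.54 CPM in cKO and 11.1 and 8.55 CPM in control libraries. Leukocytes held it at 1.00 to 1.41 CPM, which is the level carried by cells that should lack the gene.

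Cldn12, a claudin that differs from the others in lacking the usual scaffold-binding tail, was the exception. It had 15.3 and 16.7 CPM in cKO and 15.7 and 12 CPM in control neuroblasts, against 5.02 and 4.85 CPM in cKO and 5.94 and 6.67 CPM in control otic epithelium. The log2 fold change was 1.58 (SE 0.18, adjusted p = 5.27e-06), and neurons were lower again by 0.99 on the log2 scale. Among the 11 named classes neuroblasts had its highest mean, 14.9 CPM, and neurons its second highest, 7.82 CPM.

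The tight junction scaffold and the occluding proteins did not move alike. Ocln (occludin) had 9.17 and 5.04 CPM in cKO and 6.89 and 6.77 CPM in control neuroblasts, against 19 and 15.7 CPM in cKO and 17.7 and 19.1 CPM in control otic epithelium (log2 -1.25, SE 0.16, adjusted p = 1.91e-05). It fell by a further 3.33 on the log2 scale in neurons over neuroblasts. Tjp1, which also serves adherens junctions, had 34.5 and 38.2 CPM in cKO and 48.4 and 44.6 CPM in control early ganglion cells, after 54.9 and 57.6 CPM in cKO and 74.6 and 74.3 CPM in control otic epithelium. Its fall in neurons over otic epithelium was 0.74 on the log2 scale (SE 0.08, adjusted p = 0.000768), the smallest but 2 among the 23 members that were lower. The call of Tjp1 in neurons over neuroblasts (log2 -0.36) was lost when any 1 of the 4 libraries was left out, with adjusted p between 0.0529 and 0.0776.

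The keratins of simple epithelia separated at the neuroblast step. Krt8 had 125 and 108 CPM in cKO and 122 and 110 CPM in control neuroblasts, against 139 and 153 CPM in cKO and 207 and 222 CPM in control otic epithelium, a log2 fold change of -0.47 (SE 0.09, adjusted p = 0.00105). Krt18, its filament partner and neighbour on chromosome 15, had 135 and 135 CPM in cKO and 104 and 119 CPM in control neuroblasts, against 254 and 299 CPM in cKO and 269 and 305 CPM in control otic epithelium, a log2 fold change of -1.06 (SE 0.07, adjusted p = 4.63e-09). Both were low in neurons, where Krt18 had 0 UMIs in the 2 cKO libraries of maturing ganglion cells (25 and 18 cells, where 0 UMIs allow up to 4.23 and 6.50 CPM) and 3.80 and 1.10 CPM in control. Esrp1 kept 26.8 and 36.3 CPM in cKO and 31.3 and 39.8 CPM in control neuroblasts and fell by 3.12 on the log2 scale in neurons over neuroblasts.

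Cadherins took several courses. Cdh1 (E-cadherin) had 16 and 13.8 CPM in cKO and 13.2 and 9.02 CPM in control neuroblasts, against 11 and 12.5 CPM in cKO and 15.2 and 15.9 CPM in control otic epithelium. The ranges overlapped, and the log2 fold change of 0.15 (SE 0.17, adjusted p = 0.585) did not pass the test. It then fell by 2.97 on the log2 scale in neurons over neuroblasts. The neuroblast value of Cdh1 rests on how neuroblasts were clustered. With coarser clusters (resolution 0.5), where 1393 cells carried the neuroblast markers, the log2 fold change was -1.58 with an adjusted p of 0.00535. With finer clusters (resolution 2), where 863 cells did, it was -0.99 with an adjusted p of 0.00202. Cdh3 (P-cadherin), which lies 46053 bases from Cdh1 on chromosome 8, took another course. It had 9.85 and 13 CPM in cKO and 5.64 and 14.3 CPM in control neuroblasts, against 38.5 and 41.8 CPM in cKO and 38.3 and 48.6 CPM in control otic epithelium. The groups of libraries were far apart, with a log2 fold change of -1.82 (SE 0.13, adjusted p = 2.5e-08).

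Cdh2 (N-cadherin) was already present in the epithelium. Otic epithelium had 111 and 123 CPM in cKO and 125 and 96.9 CPM in control, and neuroblasts had 144 and 159 CPM in cKO and 271 and 271 CPM in control. Early ganglion cells had 231 and 233 CPM in cKO and 342 and 290 CPM in control, and maturing ganglion cells 266 and 288 CPM in cKO and 369 and 293 CPM in control. The log2 fold change was 0.93 (SE 0.14, adjusted p = 7.94e-05) in neuroblasts over otic epithelium. It was 0.39 (SE 0.09, adjusted p = 0.0118) in neurons over neuroblasts, a call that was lost without cKO 1 (adjusted p = 0.0598) or cKO 2 (adjusted p = 0.0616). Cluster 9, the control otic cluster with Fgf3, Slitrk6 and Lum among its leading genes, had the gene at 223 and 176 CPM in control libraries, between the whole otic class and the control neuroblasts.

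Many cells held both Epcam and Cdh2, in otic epithelium as well as in neuroblasts. After thinning, UMIs of both Epcam and Cdh2 were found in 71.4% and 71.6% of cKO and 80.0% and 90.4% of control neuroblasts. Otic epithelium gave 63.3% and 65.8% in cKO and 63.8% and 55.0% in control. A Cdh2 UMI alone was found in 72.6% and 73.3% of cKO and 86.7% and 94.2% of control neuroblasts. Nearly all cells of both classes held Epcam, so these shares follow Cdh2 and cannot show whether the 2 genes go together. In early ganglion cells the shares were 36.9% and 36.8% in cKO and 31.1% and 29.6% in control. No thinned leukocyte held both.

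Cdh6 (K-cadherin), a type II cadherin of kidney and neural crest, had the largest rise in neurons over otic epithelium. It had 4.08 and 0.795 CPM in cKO and 16.9 and 15.8 CPM in control neuroblasts. Early ganglion cells had 38.0 and 24 CPM in cKO and 105 and 116 CPM in control, and maturing ganglion cells 95.8 and 106 CPM in cKO and 134 and 111 CPM in control. The log2 fold change was 3.13 (SE 0.23, adjusted p = 1.81e-05) in neurons over neuroblasts and 4.00 (SE 0.24, adjusted p = 6.45e-05) in neurons over otic epithelium. Of cells thinned to 10000 UMIs, 60.9% and 66.7% of cKO and 62.6% and 56.6% of control maturing ganglion cells held a Cdh6 UMI, and no leukocyte did. Cdh6 and Epcam UMIs were found together in 6.15% and 4.18% of cKO and 11.2% and 16% of control early ganglion cells. In a cluster of epibranchial neurons (cluster 10, described below) the shares were 30.2% and 33.8% in cKO and 42.3% and 23.9% in control. Whether the 2 genes avoid each other was not tested.

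Rarer cadherins also rose. Cdh22, a type II cadherin of brain and pituitary, had 3.06 and 1.86 CPM in cKO and 0.626 and 3.76 CPM in control neuroblasts and 0.0176 to 0.0974 CPM in otic epithelium (log2 4.90, SE 0.67, adjusted p = 3.21e-05), and it was also higher in neurons over otic epithelium (log2 2.30, adjusted p = 0.0124). Cdh12, a brain cadherin, had no UMI in neuroblasts, and maturing ganglion cells had 0 and 2.17 CPM in cKO and 3.60 and 4.62 CPM in control.

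Cdh11, a type II cadherin best known from mesenchyme and bone, was highest in neuroblasts along the series. Neuroblasts had 28.2 and 38.7 CPM in cKO and 60.1 and 100 CPM in control, against 24.7 and 23.8 CPM in cKO and 35.7 and 35.2 CPM in control otic epithelium. Maturing ganglion cells had 2.82 and 2.17 CPM in cKO and 11.2 and 7.48 CPM in control. The rise in neuroblasts was 0.92 on the log2 scale (SE 0.15, adjusted p = 0.000173) and the log2 fold change in neurons over neuroblasts was -1.53 (SE 0.21, adjusted p = 0.000568). The rise was not called with resolution 0.5 (log2 0.03, adjusted p = 0.784), with resolution 2 (log2 0.27, adjusted p = 0.147) or without doublet removal (log2 0.06, adjusted p = 0.494).

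Genes that act with the members or control them moved in the same series. Of 50 such genes in 5 lists, 46 were tested in neurons over otic epithelium, and 29 were lower and 9 higher, where 54.2% of all genes passed. Unlike the members, these genes were not left out of the clustering, and Krt5, Krt14, Krt15, Grhl3 and Twist1 were class markers. Their differences between stages can therefore describe how the clusters were made, and their p-values are no independent evidence. Genes that move with the members could also shape the clusters, so leaving the members out does not make their stage differences fully independent. All 5 desmosome genes were lower, by 2.15 (Dsc2) to 4.56 (Dsp, desmoplakin) on the log2 scale. Of 18 tight junction and polarity genes, 14 were lower, among them Crb3 (log2 -5.67), the apical polarity protein, and Marveld3 (log2 -5.05), a relative of occludin. Jam2, a junctional adhesion molecule also found outside epithelia, was higher (log2 3.37).
Among 11 adherens junction partners 4 were lower and 2 higher. Ctnna1, the alpha-catenin of epithelia, fell by 0.50 on the log2 scale, and Ctnna2, the alpha-catenin of neurons, rose by 2.83. Ctnnb1, beta-catenin, had 204 and 206 CPM in cKO and 254 and 274 CPM in control early ganglion cells, and its difference in neurons over otic epithelium (log2 -0.08, adjusted p = 0.401) did not pass.
The repressors of epithelial genes Snai2, Zeb1 and Zeb2 rose together at the neuroblast step. Snai2 had 75.1 and 69.2 CPM in cKO and 145 and 154 CPM in control neuroblasts, against 1.07 and 0.981 CPM in cKO and 2.37 and 1.49 CPM in control otic epithelium. Its log2 fold change was 6.30 (SE 0.13, adjusted p = 9.68e-16), and those of Zeb2 and Zeb1 were 6.48 and 7.28. Snai2 then fell by 2.55 on the log2 scale in neurons over neuroblasts while Zeb2 rose by a further 1.65. Grhl2, an activator of epithelial junction genes including Cdh1 and Cldn4, fell by 0.88 and then by 2.95. Snai2 was also among the leading genes of cluster 20, so its height there describes the cluster. Zeb1, Zeb2 and Grhl2 were open to the clustering too.

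**Figure D2:**
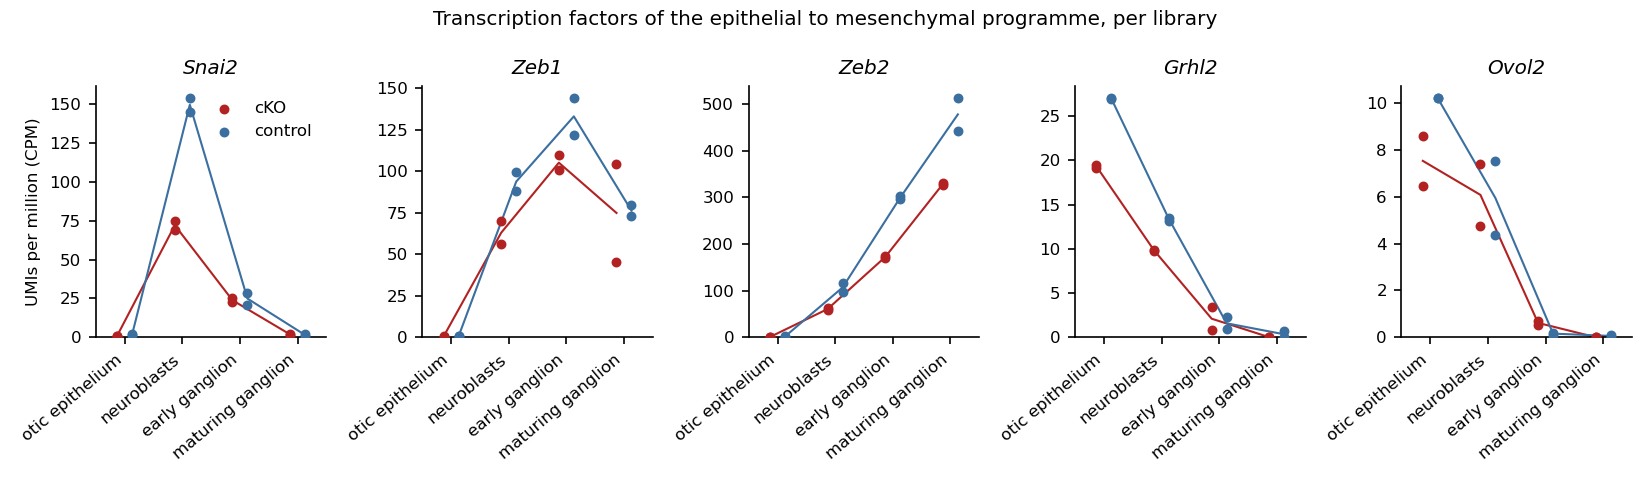
Level of 5 transcription factors in each library (points; CPM on a linear axis starting at 0) along the same 4 stages, with lines through the mean of cKO (red) and control (blue), n = 2 libraries each. Snai2 is highest in neuroblasts, at 69.2 to 154 CPM, and both cKO libraries lie below both control libraries there; Zeb2 rises through the series, and Grhl2 and Ovol2 fall.

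Across the other tissues each member had its own place. The mean level per class was highest in surface ectoderm for 15 members and in otic epithelium for 11, and the other 25 with a UMI were highest in 8 further classes. Surface ectoderm, the skin-forming layer, led for Cdh1 (66.1 and 60.9 CPM in cKO, 78.8 and 96.2 CPM in control), Cldn4, Cldn6, Cldn7, Krt8 and Krt18, and for Cldn8, Cldn11 and Cldn23. Otic epithelium led for Epcam, Cldn3, Cldn9, Cldn10 and Ocln, though for Cldn3 the means of 114 CPM in otic epithelium and 107 CPM in surface ectoderm lay within the spread of the libraries. By cluster, Cldn9 was highest in cluster 18, which was left unnamed because its leading genes, Neurog2 first, also held Pax1, Pax9 and Nkx2-6, markers of pharyngeal endoderm. It had 87.6 and 73.7 CPM there in cKO and 112 and 144 CPM in control, and control 2 held only 4 of its cells.
Endothelium was marked by its known pair. Cdh5 (VE-cadherin), the adherens junction cadherin of vessels, had 454 and 325 CPM in cKO and 435 and 357 CPM in control, and Cldn5, the claudin of the blood-brain barrier, had 959 and 897 CPM in cKO and 706 and 679 CPM in control. Endothelium had only 19 cells in control 2 and was not tested between genotypes.
Cdh19, a cadherin of Schwann cell precursors, was found in the neural crest or glia class at 18.6 and 1.97 CPM in cKO and 45.3 and 28.4 CPM in control, and no other class had a mean above 0.686 CPM. Cdh11 was highest in mesenchyme, and Cdh7 and Cdh8 in neural tube progenitors. Cdh6 was highest in epibranchial neurons, at 147 and 142 CPM in cKO and 212 and 186 CPM in control, and the neural crest or glia class spread from 9.84 to 203 CPM. Tjp1 was highest in endothelium, at 146 and 154 CPM in cKO and 180 and 167 CPM in control. Cldn1 was highest by cluster in cluster 28, an unnamed cluster led by Ttr, with 33.9 and 35.8 CPM in cKO and 47.5 and 60.0 CPM in control. Cdh13 was highest in cluster 22, unnamed and led by En1, with 68.3 and 37.9 CPM in cKO and 58.4 and 51.5 CPM in control.

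**Figure D3:**
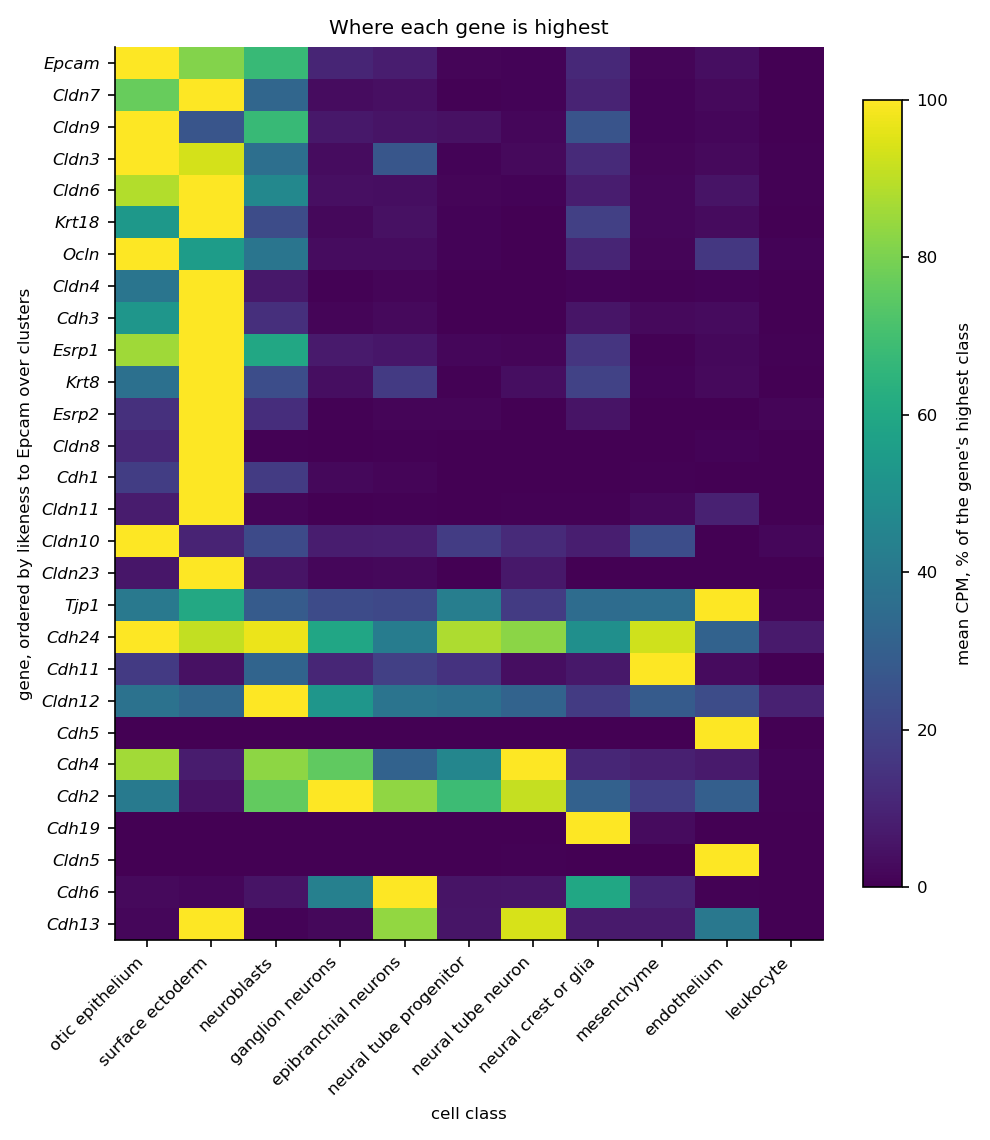
Mean level over the 4 libraries of 28 members (rows) in 11 cell classes (columns), as a percentage of the gene's highest class, so that rows are compared only within themselves. Rows run from the gene most like Epcam over the 29 clusters at the top to the least like at the bottom; the upper rows are bright in otic epithelium, surface ectoderm and neuroblasts, and Cdh5, Cldn5 and Cdh19 are bright in a single class.

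Over the 29 clusters the genes whose levels ordered most like Epcam were Cldn7 (Spearman rho 0.91), Cldn9 (0.89), Cldn3 (0.88), Cldn6 (0.87) and Krt18 (0.86). Cdh1 gave 0.77, Cdh2 -0.16, Cdh6 -0.26 and Cdh13 -0.35. The clusters share libraries, so these values describe this map and carry no p. Several members lie next to each other in the genome (mm10). Cldn6 and Cldn9 end 137 bases apart on chromosome 17, tail to tail, so that 3′ reads at their ends may be shared in part. Krt8 and Krt18 lie 23697 bases apart on chromosome 15, and Cldn3 and Cldn4 39279 bases apart on chromosome 5.

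Otic epithelium of cKO embryos had less of several claudins and cadherins and slightly more Epcam. Of 32 members tested, 12 were lower and 4 higher in cKO, 50.0% of those tested, where 40.3% of all genes passed. Among members with a control mean above 5 CPM the largest differences were those of Cldn8, Cdh6, Cldn10 and Cdh4, all lower. Cldn10 had 7.69 and 6.71 CPM in cKO and 15.2 and 16.1 CPM in control (log2 -0.96, SE 0.10, adjusted p = 0.000307). Cdh4 (R-cadherin), a cadherin of the nervous system and retina, had 7.14 and 7.97 CPM in cKO and 13.9 and 15.4 CPM in control (log2 -0.78, SE 0.10, adjusted p = 0.000676). Neither gene's groups overlapped. Cldn8, a barrier claudin best known from the kidney, had 2.12 and 1.89 CPM in cKO and 4.81 and 5.34 CPM in control (log2 -1.18, SE 0.14, adjusted p = 0.000639). Cdh6 had 1.84 and 3.42 CPM in cKO and 6.58 and 6.69 CPM in control (log2 -1.12, SE 0.22, adjusted p = 0.005). Both cKO libraries again lay below both control libraries, for Cldn8 and for Cdh6. Krt8, with 139 and 153 CPM in cKO and 207 and 222 CPM in control, was lower by 0.39 on the log2 scale. Cdh11, Esrp1 and Tjp1 were lower by 0.24 to 0.38, and the calls of Esrp1 and Tjp1 were lost without cKO 1 (adjusted p = 0.189 and 0.147) and without control 1 (0.0595 and 0.054). In the same class 12 mesenchyme markers summed to 152 and 119 CPM in cKO and 69.6 and 60.3 CPM in control, and their part in the result was not tested.
Epcam was slightly higher in cKO (log2 0.29, SE 0.09, adjusted p = 0.0262), with 862 and 894 CPM in cKO and 860 and 745 CPM in control, so that the libraries nearly met. Its call was lost without cKO 2 (adjusted p = 0.0557) or control 2 (adjusted p = 0.055). Without TMM factors the log2 fold change was 0.13 (adjusted p = 0.183) for Epcam and 0.16 (adjusted p = 0.0651) for Cldn7. That scaling, chosen after seeing the data, moved the median of all genes from -0.02 to -0.18, called 2 members higher and 15 lower, and split all calls into 1733 higher and 4957 lower, against 3208 and 2985 with TMM factors. Cdh2 (log2 0.24, adjusted p = 0.147) and Cdh1 (log2 -0.23, adjusted p = 0.0679) missed the threshold.

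Since this comparison sets different clusters against each other, it was repeated within clusters 4, 17 and 21, which held at least 20 cells in every library. The planned rule, at least 5% of the class in both genotypes, was met by no otic cluster, and the rule used here was not planned. Clusters 4, 17 and 21 held 22, 20 and 32 cells in cKO 1, against 342, 194 and 86 in control 1. There 6 of 29 members were higher and 2 lower, where 18.8% of all genes passed. Cldn10 remained lower, by 2.44 on the log2 scale (SE 0.26, adjusted p = 6.13e-05). In cluster 4 it had 1.11 and 2.39 CPM in cKO and 16 and 16.2 CPM in control, and in cluster 17 it had 2.88 and 2.79 CPM in cKO and 13.2 and 11 CPM in control. These cKO values rest on few UMIs. A count of 0 would allow up to 3.34 and 1.20 CPM in cKO cluster 4 and 8.63 and 4.18 CPM in cKO cluster 17. Cdh4 also remained lower (log2 -0.93, SE 0.16, adjusted p = 0.00187).
Krt8, Krt18, Cldn1, Cldn3, Cldn4 and Cdh6 were higher in cKO within these clusters, and for Krt8 (log2 0.59) and Cdh6 (log2 2.49) this turned the direction found in the whole class. In cluster 4 Krt18 had 380 and 474 CPM in cKO and 228 and 237 CPM in control, and Cldn3 had 239 and 229 CPM in cKO and 114 and 117 CPM in control. Cdh6 had 10.01 and 10.4 CPM in cKO and 1.92 and 1.01 CPM in control in cluster 4, and in cluster 21 it had 33.4 and 71.5 CPM in cKO and 38.0 and 29.6 CPM in control. Cluster 21 held 32 of 74 and 83 of 173 of the cKO cells of these 3 clusters, against 86 of 622 and 103 of 522 of the control cells, and its part in the summed values was not tested. Among members called over the whole class, Cldn8 (log2 -0.46, adjusted p = 0.369), Cdh11 (log2 -0.04, adjusted p = 0.877), Esrp1 (log2 -0.21, adjusted p = 0.272) and Tjp1 (log2 -0.19, adjusted p = 0.190) did not pass there, nor did Epcam (log2 0.03, adjusted p = 0.826) and Cldn7 (log2 0.03, adjusted p = 0.849).

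Neuroblasts of cKO embryos had more Epcam and Cldn7 and less Cdh2, Cdh6 and Cdh11. Of 19 members tested within cluster 20, 2 were higher and 3 lower, 26.3%, where 15.2% of all genes passed. Cldn7 had 150 and 160 CPM in cKO and 87.7 and 85.0 CPM in control, a log2 fold change of 0.88 (SE 0.13, adjusted p = 9.85e-05). Epcam had 624 and 658 CPM in cKO and 462 and 517 CPM in control, a log2 fold change of 0.43 (SE 0.11, adjusted p = 0.0091). Krt8 (log2 0.04, adjusted p = 0.885) and Cdh1 (log2 0.42, adjusted p = 0.379) did not pass.
Cdh2, with 144 and 159 CPM in cKO and 271 and 271 CPM in control, was lower by 0.79 on the log2 scale (SE 0.12, adjusted p = 0.000121). Cdh11, with 28.2 and 38.7 CPM in cKO and 60.1 and 100 CPM in control, was lower by 1.18 (SE 0.20, adjusted p = 0.00054). Cdh6 rested on 12 and 3 UMIs in cKO and 27 and 21 UMIs in control and was lower by 2.61 (SE 0.45, adjusted p = 0.000619). None of these 5 genes' groups overlapped, and leaving out any 1 library kept all 5 calls.
Of 34 genes of the 5 lists tested there, 4 were higher and 6 lower, where 15.2% of all genes passed. The repressors named above were among those lower. Snai2 had 75.1 and 69.2 CPM in cKO and 145 and 154 CPM in control (log2 -1.01, SE 0.13, adjusted p = 2.33e-05). Zeb2 was lower by 0.78 and Zeb1 by 0.53 on the log2 scale. Krt7 (log2 1.84) and Krt19 (log2 1.65), further epithelial keratins, Crb3 (log2 0.93) and Nectin2 (log2 0.99), a nectin of epithelial contacts, were higher. Ctnnb1 (log2 -0.65), Nectin1 (log2 -1.03) and Pard3 (log2 -0.72), a polarity scaffold, were lower. In the same cells the 12 neuroblast markers summed to 3292 and 3333 CPM in cKO and 3663 and 3849 CPM in control, the 16 otic markers to 490 and 547 CPM in cKO and 818 and 909 CPM in control, and the 11 surface ectoderm markers to 26.2 and 19.6 CPM in cKO and 3.76 and 3.01 CPM in control, with Krt5 and Krt14 at 0. The 8 epibranchial markers summed to 61.1 and 132 CPM in cKO and 19.4 and 6.77 CPM in control, with Hand2 at 0. The part of these other cell types in the differences was not tested.

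Early ganglion cells of cKO embryos likewise had more of several epithelial members and less of several cadherins. Of 18 members tested within cluster 1, 5 were higher and 5 lower in cKO, where 27.7% of all genes passed. Krt8 had 28.6 and 29.2 CPM in cKO and 17.4 and 9 CPM in control (log2 1.20, SE 0.22, adjusted p = 0.00265). Krt18 was higher by 0.94, Epcam by 0.53, Cldn7 by 0.59 and Cdh1 by 1.17 on the log2 scale. The Cldn7 call was lost without cKO 1 (adjusted p = 0.178) or control 2 (adjusted p = 0.104), and without cKO 1 only 6 members were called. Without TMM factors 3 members were called higher and 6 lower, and all calls split into 1041 higher and 2125 lower, against 1706 and 1557.
Cdh6 had 38.0 and 24 CPM in cKO and 105 and 116 CPM in control, a log2 fold change of -1.74 (SE 0.16, adjusted p = 3.04e-05). A Cdh6 UMI was found in 25.1% and 19.7% of cKO and 47.3% and 51.4% of control early ganglion cells after thinning. Such a share falls with less RNA per cell as well as with fewer cells that express the gene. Cdh11 was lower by 0.84, and Cdh2 by 0.35, a call that was lost without control 1 (adjusted p = 0.0802). Cdh4 was lower by 0.66, a call that was lost without cKO 1, cKO 2 or control 1 (adjusted p = 0.131, 0.0797 and 0.276). Cdh10, a type II cadherin of the brain, was lower by 1.25 and had under 3 CPM in every library. Ctnna2, the neuronal alpha-catenin, had 8.41 and 8.72 CPM in cKO and 23.0 and 20.9 CPM in control (log2 -1.25, SE 0.15, adjusted p = 0.000193).

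Markers of other cells differed beside these genes. In cluster 1 the 14 sensory neuron markers summed to 2027 and 2090 CPM in cKO and 3086 and 3350 CPM in control, and the 8 epibranchial markers to 109 and 140 CPM in cKO and 24.7 and 35.1 CPM in control, with Hand2 at 0. The 12 mesenchyme markers summed to 122 and 77.9 CPM in cKO and 65.0 and 44.3 CPM in control, and the 12 neural tube progenitor markers to 170 and 175 CPM in cKO and 81.1 and 103 CPM in control, with Dbx1 at 0. The 12 neural tube neuron markers summed to 31.4 and 36.3 CPM in cKO and 58.1 and 97.1 CPM in control, with Barhl2 and Evx1 at 0. The part of all these markers in the differences was not tested.

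**Figure D4:**
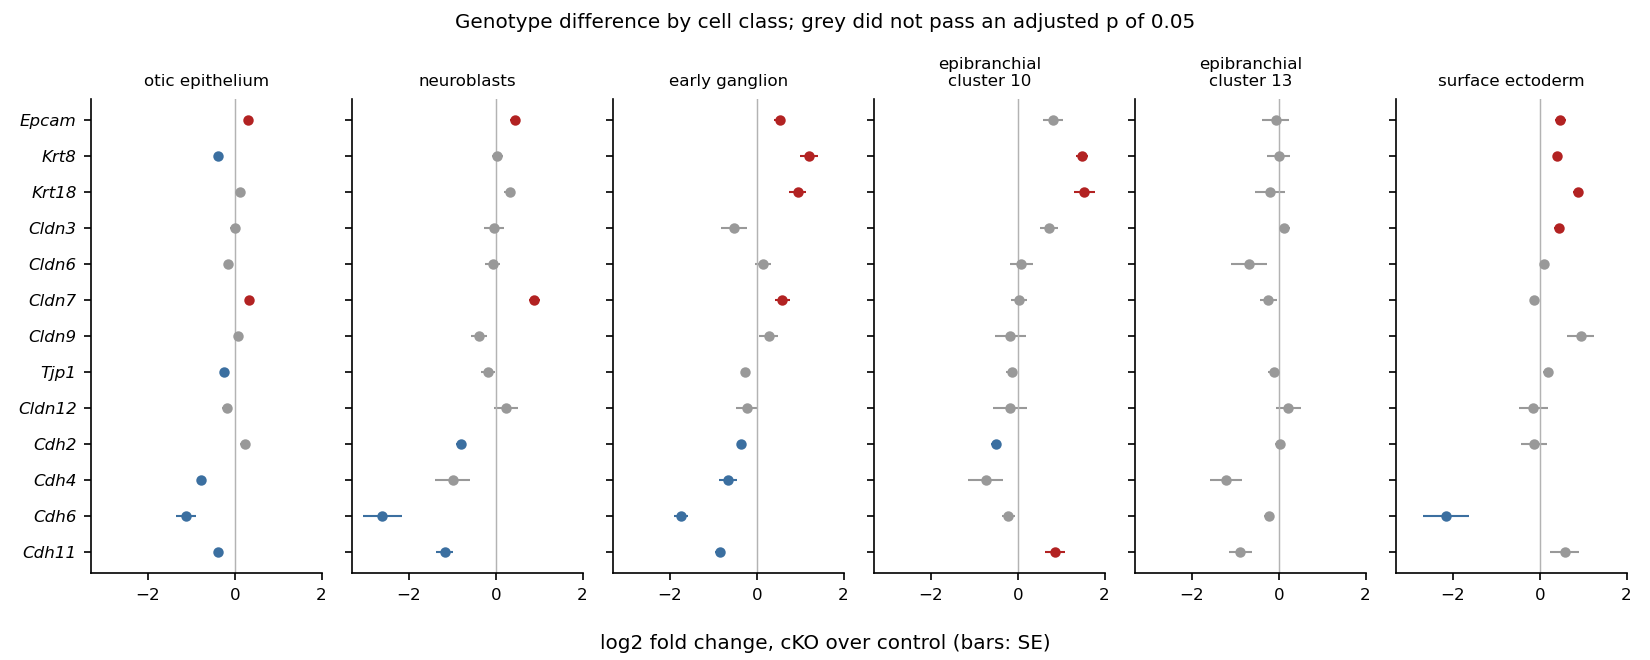
Log2 fold change of cKO over control (points; bars show the SE of the edgeR fit) for 13 members in 6 cell groups; red is higher and blue lower at an adjusted p below 0.05, and grey did not pass. Cdh2, Cdh6 and Cdh11 lie left of 0 in neuroblasts and early ganglion cells, Epcam and Cldn7 lie right of 0 there, and Krt8 and Krt18 lie right of 1 in epibranchial cluster 10.

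Over the whole placodal neuron lineage (clusters 1, 8 and 20 together) 13 of 24 members were higher in cKO and 5 lower, where 37.8% of all genes passed. The 13 were 5 claudins, 5 of the other epithelial genes, Cdh1, Cdh3 and Cdh22. Cldn7 was higher by 1.85 (SE 0.16, adjusted p = 0.000131), Krt18 by 1.83 and Epcam by 1.61 on the log2 scale. These values are larger than those within clusters 20 and 1, and the make-up of the lineage differed. Neuroblasts made up 29.6% of it in cKO and 8.40% in control, early ganglion cells 64.2% and 47.8%, and maturing ganglion cells 6.21% and 43.8%. Cdh6 was lower by 1.89 (SE 0.19, adjusted p = 0.000309) over the lineage. In maturing ganglion cells, of which the cKO libraries held only 25 and 18, it had 95.8 and 106 CPM in cKO and 134 and 111 CPM in control.

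The difference between genotypes was itself different in the lineage and in otic epithelium. An interaction term was positive for 14 of 32 members and negative for 1, where 16.6% of all genes passed. The interaction was 2.16 for Cdh1 (SE 0.30, adjusted p = 0.000827), 2.08 for Krt8 (SE 0.21, adjusted p = 0.00013) and 1.36 for Epcam (SE 0.10, adjusted p = 2.06e-05). For Cdh2 it was -0.69 (SE 0.07, adjusted p = 0.000117). The cluster make-up given above differs between genotypes on both sides of this comparison.

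Epibranchial neurons, the viscerosensory neurons of the neighbouring placodes, were compared in their clusters. Cluster 10 carried Neurog2 and Neurod4 among its leading genes, and cluster 13 carried Nefl, Nefm and Prph. In cluster 13 over cluster 10, 12 of 21 members were lower and 5 higher, where 57.9% of all genes passed. Krt8 had 8.52 and 12.4 CPM in cKO and 14.2 and 9.01 CPM in control in cluster 13, against 219 and 223 CPM in cKO and 96.8 and 71.4 CPM in control in cluster 10 (log2 -3.55, SE 0.21, adjusted p = 5.29e-08). Epcam fell by 2.55 and Krt18 by 2.35 on the log2 scale. Cdh13 (T-cadherin), which is tied to the membrane by a lipid anchor, rose by 1.90, and Cldn3, which fell along the ganglion series, rose by 0.63 (SE 0.13, adjusted p = 0.00146).
Cldn3 had 37.7 and 36.3 CPM in cKO and 33.9 and 38.4 CPM in control in cluster 13, against 30.4 and 26.2 CPM in cKO and 15.0 and 21.0 CPM in control in cluster 10. Maturing ganglion cells had 1.41 and 6.50 CPM in cKO and 4.4 and 4.4 CPM in control. The 2 neuron types thus held different levels of this claudin in every library, a difference that was not tested.

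Between genotypes cluster 10 differed in its keratins. Of 20 members tested 3 were higher and 1 lower in cKO, where 6.73% of all genes passed. Krt8 had 219 and 223 CPM in cKO and 96.8 and 71.4 CPM in control (log2 1.47, SE 0.14, adjusted p = 0.000288). Krt18 had 59.1 and 56.0 CPM in cKO and 28.4 and 13.3 CPM in control (log2 1.53, SE 0.24, adjusted p = 0.00488). Cdh11 was higher by 0.86 and Cdh2 lower by 0.51. No groups overlapped in these 4 genes. All 4 calls were lost without cKO 1 (adjusted p from 0.403 to 0.456) or cKO 2 (adjusted p from 0.297 to 0.418), while the log2 fold change of Krt8 stayed at 1.48 and 1.49. Without control 2 the calls of Cdh11 (log2 0.44, adjusted p = 0.142) and Cdh2 (log2 -0.44, adjusted p = 0.0617) were lost, and without control 1 there were 6 calls.
A Krt8 UMI was found in 67.5% and 72.5% of cKO and 45.9% and 29.2% of control cells of cluster 10 after thinning, against 0% to 2.08% of leukocytes. In the same cluster the 12 mesenchyme markers summed to 226 and 186 CPM in cKO and 94.4 and 64.4 CPM in control, and the 11 surface ectoderm markers to 34.8 and 36.5 CPM in cKO and 26.4 and 18 CPM in control with Krt14 at 0, and their part in the result was not tested.
In cluster 13 no member of 16 passed by edgeR, where 9.40% of all genes did; 5 had an unadjusted p below 0.05, and DESeq2 called none. For 13 of the 16 DESeq2 gave no adjusted p. Leaving out cKO 1 gave 3 calls, and leaving out cKO 2 or control 1 gave 1 each, all lower in cKO. Over the whole epibranchial class 5 of 24 members were higher and 3 lower, where 25.2% of all genes passed. Without control 1 or control 2, which leaves 1 control library, calls fell among the members and among all genes. The class was made up differently in the 2 genotypes: cluster 13 held 57 of its 324 and 143 of its 413 cells in cKO, against 186 of 340 and 164 of 301 cells in control, and its part in these differences was not tested. In the whole class Cdh13, which was higher in cluster 13 than in cluster 10, had 3.29 and 4.25 CPM in cKO and 9.33 and 10.9 CPM in control (log2 -1.26, SE 0.22, adjusted p = 0.00768), a call lost without control 1 (adjusted p = 0.0584) or control 2 (adjusted p = 0.0917).

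**Figure D5:**
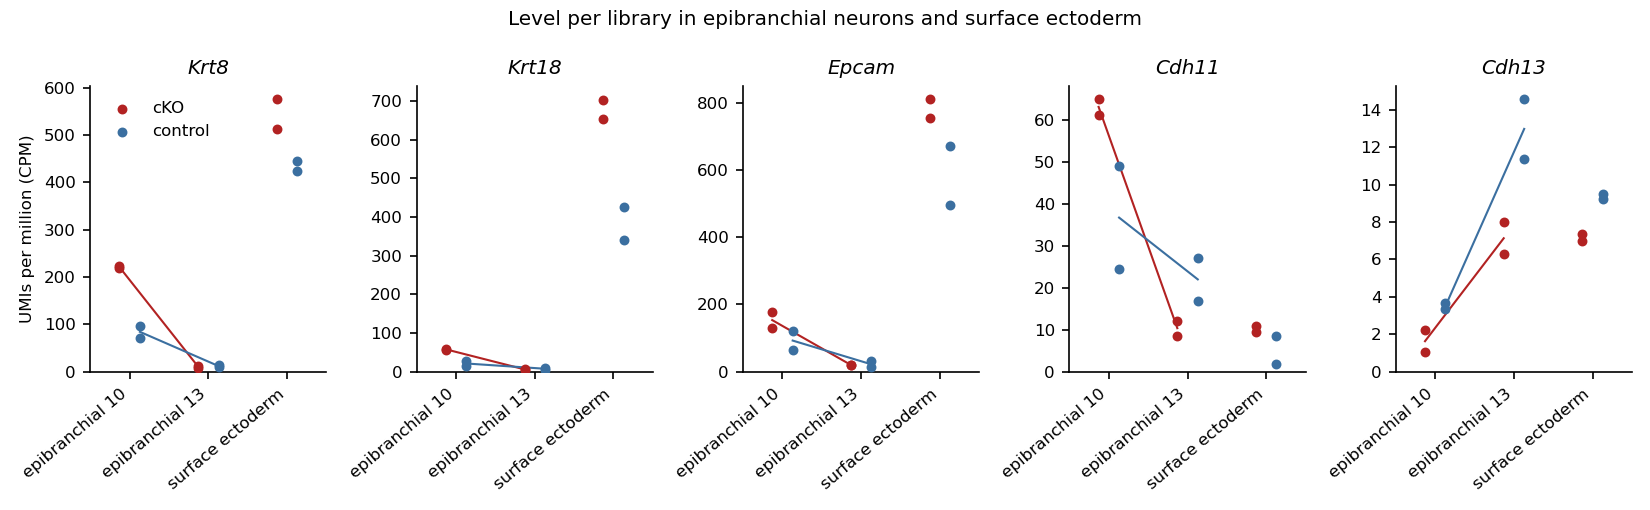
Level of 5 members in each library (points; CPM on a linear axis starting at 0) in epibranchial clusters 10 and 13 and in surface ectoderm, cKO in red and control in blue, with lines through the means of n = 2 libraries each. In cluster 10 both cKO libraries lie above both control libraries for Krt8, Krt18, Epcam and Cdh11, and in cluster 13 they overlap for Krt8 and Epcam and lie below for Cdh11 and Cdh13.

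Among the remaining classes surface ectoderm had the most calls. There 5 of 24 members were higher and 2 lower in cKO, 29.2% of those tested, where 5.35% of all genes passed. Krt18 had 703 and 652 CPM in cKO and 425 and 339 CPM in control (log2 0.88, SE 0.10, adjusted p = 0.00128), and its call held without any 1 library. Cldn11, the claudin of myelin and of Sertoli cells, had 58.7 and 31.8 CPM in cKO and 16.9 and 13.9 CPM in control (log2 1.56, SE 0.30, adjusted p = 0.0144), a call lost without control 1 (adjusted p = 0.0639). Its change was 1.04 without cKO 1. Krt8, Cldn3 and Epcam were higher by 0.39 to 0.48 on the log2 scale, and their calls were lost without cKO 1 (adjusted p from 0.0701 to 0.298) or cKO 2 (from 0.0712 to 0.224). Cdh6 was lower by 2.17, a call lost without cKO 1 (adjusted p = 0.29) or control 1 (adjusted p = 0.218). Control 2 had 49 cells of this class. The 11 surface ectoderm markers summed to 1135 and 1037 CPM in cKO and 1275 and 1515 CPM in control, the 12 mesenchyme markers to 137 and 162 CPM in cKO and 122 and 56.4 CPM in control, and the 12 neural tube neuron markers to 181 and 162 CPM in cKO and 291 and 393 CPM in control, and their part in the result was not tested. Without cKO 1 or cKO 2 calls fell among the members and among all genes. Without TMM factors 2 members were higher and 2 lower, and all calls split into 270 higher and 556 lower, against 331 and 309.
Mesenchyme differed in 1 of 11 members, where 5.74% of all genes passed. Cdh11 had 140 and 142 CPM in cKO and 211 and 211 CPM in control (log2 -0.46, SE 0.10, adjusted p = 0.0248), a call lost without cKO 1 (adjusted p = 0.0851) or cKO 2 (adjusted p = 0.0522). It was also lost without doublet removal (adjusted p = 0.0521) and with a replicate block (adjusted p = 0.0662). The class's own 12 markers summed to 1432 and 1696 CPM in cKO and 1965 and 1952 CPM in control, and their part in the result was not tested. Without cKO 1 the class instead gave 3 calls and without control 1 it gave 2. In neural tube progenitors 1 of 4 members differed, where 1.03% of all genes passed. It was again Cdh11, with 12.1 and 13.7 CPM in cKO and 44.2 and 31.9 CPM in control (log2 -1.50, SE 0.26, adjusted p = 0.0191), and the call was lost without control 1 (adjusted p = 0.126) or control 2 (adjusted p = 0.0797), while without cKO 2 the class gave 2 calls. The call was also lost with resolution 0.5 or 2 (adjusted p = 0.0888 each) and without doublet removal (adjusted p = 0.0769). In this class the 16 otic markers summed to 96.4 and 81.4 CPM in cKO and 235 and 206 CPM in control, with Hmx3 at 0, and their part in the result was not tested.
In neural tube neurons none of 8 members passed by edgeR (0.634% of all genes did) and 1 had an unadjusted p below 0.05. DESeq2 called none, and for 7 of the 8 it gave no adjusted p. Without cKO 1 it gave 1 call. In neural crest or glia none of 13 passed by edgeR (0.203% of all genes did), 6 had an unadjusted p below 0.05, and DESeq2 gave no adjusted p for these 13. Calls there numbered 8 without control 1, 4 without cKO 1 and 2 without control 2. That class has a median of 5790 UMIs a cell and held Epcam at 77.9 and 207 CPM in cKO and 83.5 and 14.4 CPM in control, with 16 otic markers summing to 184 and 305 CPM in cKO and 313 and 108 CPM in control. In leukocytes no member was high enough to be tested. Of 13 genes of the 5 lists tested there, 2 were lower and none higher, where 2.97% of all genes passed. Among them Ctnnd1 (p120-catenin), which holds cadherins at the surface, had 40.01 and 31.05 CPM in cKO and 75.9 and 51.9 CPM in control (log2 -0.79, SE 0.20, adjusted p = 0.0449). It was also lower in otic epithelium (log2 -0.69), where 40.3% of all genes passed.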

How the data were processed

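Single-cell RNA-seq was measured in 4 10x 3′ v3.1 libraries. The deposited matrices hold UMI counts per gene and barcode, not normalized. Per the submitters' processing notes, FastQC 0.11.4, Cell Ranger 3.1.0 and Seurat 4.1.0 were used with mm10, whereas the file headers name Cell Ranger 6.0.1. Filtered barcodes (4622 to 5340 a library) were kept with at least 1000 genes and at most 10% mitochondrial UMIs. Doublets were removed by Scrublet score at 0.8% per 1000 barcodes, since the tool's own threshold marked 0 to 5 a library. Cells were clustered without the members (2000 variable genes, 30 components, 20 neighbours, Leiden resolution 1). A class needed at least 3 markers and 40% of its list, a rule fixed only once the clusters had been seen. The members and lists were chosen with earlier results of these data known.
Counts were summed per library and class and tested with edgeR 4.0.16 (quasi-likelihood, TMM factors, prior count 1, low-count filter, Benjamini-Hochberg threshold 0.05) in R 4.3.3. Genotypes were compared across libraries, stages within them with library as a term. Classes with fewer than 20 cells in a library were not tested. Members with an adjusted p under 0.05, an absolute log2 fold change of at least 0.5 and a mean of at least 5 CPM in 1 group were named first, up to 12 a comparison, and the others described were chosen for their role or after their values were seen. The fit was tested on simulated counts. Alternatives were DESeq2 1.42.0, no low-count filter, 2 other clusterings, no doublet removal, library totals, members in the clustering, shared clusters, a replicate block and each library left out. Clustering used scanpy 1.11.5 and leidenalg 0.10.2 in Python 3.11.15. Gene positions are GENCODE vM21. Intervals and limits for a count of 0 cover counting error only. With 2 libraries against 2, an exact permutation test cannot go below p = 0.333, so none was run.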

Additional observations from a re-analysis of the deposited data

Results flagged for a closer look

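For 15 of 32 members tested the difference between cKO and control was itself different in the placodal neuron lineage and in otic epithelium. It was measured by edgeR's interaction term (lineage minus otic epithelium, on the log2 scale). Calls had an adjusted p below 0.05 over all genes, and 16.6% of all genes passed. The term was positive for 14 of the 15 members. Among epithelial genes it was 2.08 for Krt8, 1.76 for Krt18, 1.72 for Esrp1, 1.55 for Ocln, 1.36 for Epcam and 0.35 for Tjp1. Among claudins it was 1.57 for Cldn7, 1.53 for Cldn6, 1.48 for Cldn4, 1.27 for Cldn10, 1.09 for Cldn9 and 0.95 for Cldn3. Among cadherins it was 2.16 for Cdh1 and 1.78 for Cdh3, and it was -0.69 for Cdh2. The share of neuroblasts in the lineage was 29.6% in cKO and 8.40% in control. Clusters 0, 3, 5 and 19 held 90.7% of cKO otic cells and 0.301% of control otic cells. Within clusters of at least 20 cells in every library, the log2 fold change of Cldn3 was 0.60 (lineage) and 0.82 (otic epithelium). It was 1.27 and 0.92 for Krt18, 1.10 and 0.59 for Krt8, 1.02 and 0.03 for Epcam, and 1.51 and 0.03 for Cldn7. No interaction was fitted there, and the part of these shares in the values was not tested.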

How the results depend on the processing

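Of 1442 alternative values of 121 gene results, 1341 kept their direction and side of the threshold, 94 no longer passed, 2 passed only then and 5 changed direction: Cdh6 (2.49) and Krt8 (0.59) in otic epithelium within shared clusters, and Cdh1 in neuroblasts over otic epithelium with resolution 0.5 (-1.58), with resolution 2 (-0.99) and without doublet removal (-1.34). Counts of called members stayed within 1.5 times for 230 of 274 alternatives. Within shared clusters otic epithelium gave 8 calls. DESeq2 called 5 members in epibranchial neurons, 4 in surface ectoderm, 0 in neural tube progenitors, 6 in early ganglion cells and 4 other junction genes in neuroblasts. It called 13.8% of all genes in epibranchial neurons and 2.30% in surface ectoderm. For 5 members in epibranchial neurons, 11 in surface ectoderm and 3 in neural tube progenitors it gave no adjusted p. Library totals gave 4 in surface ectoderm and 2 in epibranchial cluster 13. Without the low-count filter there were 5 in mesenchyme, 2 in neural tube progenitors, 6 in neural crest or glia, 2 in cluster 10 and 3 in cluster 13. Without doublet removal there were 15 in epibranchial neurons, 0 in mesenchyme, 3 in neural tube progenitors, 1 in neural crest or glia and 39 other junction genes in neuroblasts over otic epithelium. Resolutions 0.5 and 2 gave 0 in neural tube progenitors, and 38 and 36 other junction genes in neuroblasts over otic epithelium. The cause of these shifts was not tested.
Leaving out 1 library gave 13 to 16 members in otic epithelium, 15 to 17 in the lineage, 2 to 9 in epibranchial neurons, 2 to 8 in surface ectoderm, 1 to 3 in mesenchyme, 0 to 2 in neural tube progenitors, 0 to 1 in neural tube neurons, 0 to 8 in neural crest or glia, 6 to 7 in early ganglion cells, 0 to 6 in cluster 10, 0 to 3 in cluster 13, and 6 to 8 other junction genes between genotypes in neuroblasts.
Where 1 library was left out, the share of all genes called also moved in several classes. The replicate numbers are not known to pair libraries: deviations of same-numbered libraries correlated at -0.05 to 0.08. With a replicate block the calls were 17 in otic epithelium, 17 in the lineage, 9 in epibranchial neurons, 8 in surface ectoderm, 0 in mesenchyme, 1 in neural tube progenitors, 5 in neuroblasts, 8 in early ganglion cells, 5 in cluster 10 and 1 in cluster 13, and 22 and 10 other junction genes in otic epithelium and neuroblasts.
Library totals in place of TMM factors moved the all-gene median by over 0.1 in neuroblasts over otic epithelium (to -0.13, with 1306 higher and 2897 lower, against 1933 and 1962) and in the lineage (to -0.13, with 1595 and 3250, against 2398 and 2488), and members stayed at 4 and 17 and at 13 and 5. It did so too in epibranchial neurons (to -0.12, with 925 and 2393, against 1551 and 1683), mesenchyme (to -0.14, with 165 and 575, against 315 and 280) and neural crest or glia (to -0.17, with 5 and 16, against 5 and 11), where members went to 5 and 4 and stayed at 0 and 1 and at 0. The split of calls also moved by over 10 percentage points in cluster 10 (231 and 603, against 351 and 395), cluster 13 (307 and 1015, against 567 and 539), neural tube progenitors (19 and 45, against 41 and 47) and neural tube neurons (12 and 49, against 20 and 40). With 2 libraries a group and 18 to 86 cells of some clusters in a library, low members were mostly not testable. Cluster 18, unnamed and with markers of pharyngeal endoderm among its leading genes, was not compared, since control 2 held 4 of its cells.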
